A study of Arabidopsis thaliana with 9 samples.

Results

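Class III peroxidases are secreted, heme-containing enzymes of land plants. The 58 genes described here were chosen as a list of gene identifiers of this family, out of 28775 genes in the count table. The list names its genes and sets no threshold on a measured value, but it was drawn up with earlier results of these data known. All 58 were in the table, and 51 of them had enough counts to be tested. A further 16 genes carry a peroxidase product name of the same family in RefSeq and were not listed.

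Every group was of the Arabidopsis thaliana ecotype Col-0, and root RNA was measured. Mock seedlings grew without carbenicillin, a beta-lactam antibiotic used to clear bacteria from plant cultures. Other seedlings had 10 µg/mL carbenicillin for 1 day or for 7 days. Every seedling spent 6 days on a first plate and 1 day on a second one, at 24 °C with 16 h of light and 8 h of dark. Only the second plate held the antibiotic in the 1 day group, and both plates held it in the 7 day group. Each of the 3 groups has 3 libraries. The labels do not say whether libraries of a group came from separate cultures or pools of seedlings, and a p-value here reflects library-to-library spread that may be technical.

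These enzymes use hydrogen peroxide to oxidize phenols in the cell wall. They couple monolignols into lignin in the xylem and in the Casparian strip, the barrier in the wall of the endodermis, and crosslink wall proteins such as extensins, which stiffens the wall. In an oxidative cycle they also produce reactive oxygen, during the burst that follows pathogen recognition and during cell elongation and root hair growth. NADPH oxidases supply much of the superoxide from which the peroxide forms, and the transcription factor UPB1 represses a set of peroxidase genes in the root.

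Library depth ran from 5820675 to 16088265 counts. In each group 1 library was shallow, namely mock replicate 1 with 5820675 counts, 1 day replicate 3 with 7533177 and 7 days replicate 3 with 6707693, while the other 6 libraries held at least 13707967. Levels are given as CPM, counts scaled to the size of the library by the TMM method of edgeR, and levels of different genes are compared as CPM per kb of coding length. Markers of cell types found in roots were present in each library, with summed CPM of 454 to 571 for 6 xylem markers, 172 to 232 for 4 endodermis markers and 142 to 218 for 6 root hair markers. Shoot transcripts summed to 0.604 to 93.1 CPM over 8 genes.

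The share of counts that fell in the 58 genes together overlapped between the groups. It was 0.802%, 0.960% and 1.03% of all counts in the mock libraries, 0.973%, 1.11% and 0.829% after 1 day, and 0.977%, 0.945% and 0.839% after 7 days. The difference in the share was 0.0397 percentage points for 1 day against mock (exact permutation test, two-sided, p = 0.7), -0.0105 for 7 days against mock (p = 0.9) and -0.0502 for 7 days against 1 day (p = 0.7), all from exact permutation with 3 against 3 libraries, where the smallest possible p is 0.1. The sign of each difference rested on single libraries. The first was -0.0246 without mock replicate 1 and -0.0297 without 1 day replicate 2, and reached 0.110 without 1 day replicate 3. The second was 0.00429 without mock replicate 2, 0.0391 without mock replicate 3 and 0.0302 without 7 days replicate 3. The third was 0.0192 without 1 day replicate 2 and fell to -0.121 without 1 day replicate 3. In each group the lowest share belonged to the shallow library, and the 3 shallow libraries lay at 0.802% to 0.839%, below the other 6 at 0.945% to 1.11%. Depth cannot be told apart from anything else that these 3 libraries have in common.

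**Figure D1:**
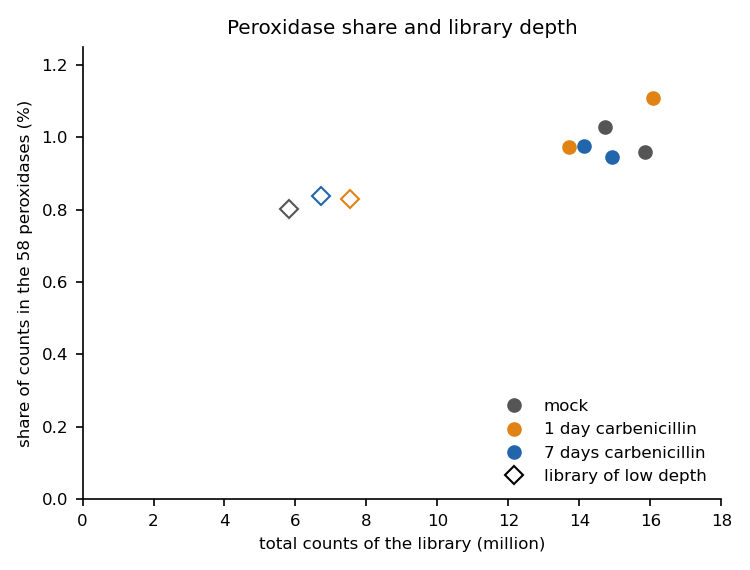
Share of all counts falling in the 58 peroxidase genes (percent, y axis) against the total counts of each library (x axis), 1 point per library, coloured by group, open diamonds for the 3 shallow libraries. The shallow libraries sit at 0.802% to 0.839% and the other 6 at 0.945% to 1.11%, with the 3 groups mixed.

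Transcript levels spanned more than 3 orders of magnitude. The highest was PRXR1 (AT4G21960), at 1166 ± 93 CPM per kb over the 9 libraries (mean ± SD, n = 9), and the lowest tested was PRX52 at 0.54 ± 0.416 CPM per kb. AT3G32980 (1064 ± 139 CPM per kb), AT2G37130 (994 ± 193), PRX71 (AT5G64120, 967 ± 305) and AT5G64100 (573 ± 95) followed PRXR1. Members that stood next to each other in this order overlapped in their 9 library values in 57 of 57 neighbouring pairs, so no neighbouring pair was separated. The divisor was the coding length, and annotated transcripts are longer by unequal amounts. They have 1829 bases for PRXR1, 1541 for AT3G32980, 1438 for AT2G37130 and 1342 for PRX71, so the order of these genes could differ per kb of transcript.

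PRXR1 gave 1055, 1289 and 1126 CPM in the mock libraries, 1191, 1051 and 1074 CPM after 1 day and 1127, 1269.5 and 1239 CPM after 7 days. AT3G32980 gave 1043, 1035 and 1204 CPM in the mock libraries, 1142, 1415 and 1015 CPM after 1 day and 1249, 1111 and 923 CPM after 7 days. AT2G37130 gave 806, 1066 and 907 CPM in the mock libraries, 966, 1354 and 837 CPM after 1 day and 945, 1167 and 755 CPM after 7 days. The 3 most abundant members varied less than 2-fold across the 9 libraries, with AT2G37130 varying most and PRXR1 least.

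**Figure D2:**
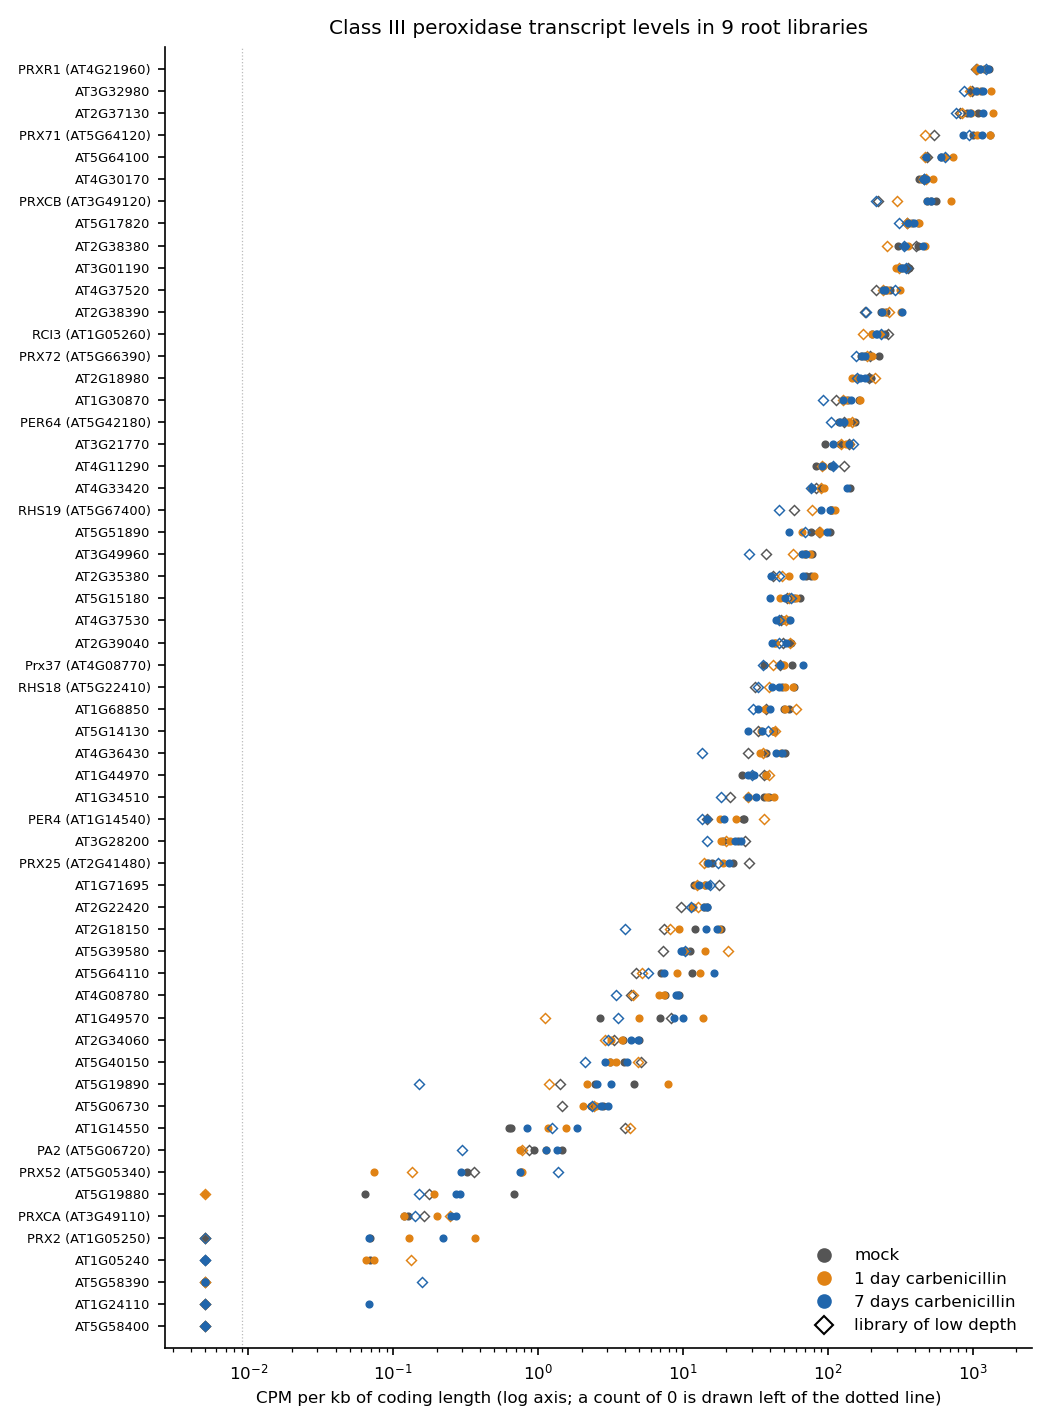
Level of each of the 58 peroxidase genes in each of the 9 libraries (CPM per kb of coding length, log x axis; a count of 0 is drawn left of the dotted line), ordered by mean, coloured by group, open diamonds for the 3 shallow libraries. Levels run from 1166 CPM per kb for PRXR1 to 0.540 for PRX52 among the tested members, and the 7 untested members have at most 10 counts in a library.

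The 7 members that failed the filter for low counts were AT1G05240, PRX2 (AT1G05250), AT1G24110, PRXCA (AT3G49110), AT5G19880, AT5G58390 and AT5G58400. AT5G58400 had 0 counts in all 9 libraries, for which the limit that a count of 0 allows is 0.186 to 0.515 CPM per library (3 counts; counting error only). AT5G19880 had the most, with 10 counts in mock replicate 3. For 3 of the 7, a family gene with at least 90% coding identity exists.

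AT1G05240 and PRX2 are adjacent genes on opposite strands of chromosome 1, and their coding sequences of 978 bases are identical (100%, 0 differences). Of the 50-base windows in their annotated transcripts, 59.4% of those of AT1G05240 and 100% of those of PRX2 are shared. Reads from shared windows cannot be told apart, and how reads that fit 2 places were counted is not given in the sources used here. AT1G05240 had 0 or 1 counts per library, although part of its annotated transcript is not shared. PRX2, which has no unshared window, had 0 to 5. Low counts of this pair are therefore uncertain as a measure of its transcript level, and the first 90 coding bases are shown for both to make the identity visible (RefSeq, TAIR10.1; AT1G05240 at chr1:1521202-1521291 on the + strand, PRX2 at chr1:1527080-1527169 on the − strand, no letters in capitals because none differ):
AT1G05240: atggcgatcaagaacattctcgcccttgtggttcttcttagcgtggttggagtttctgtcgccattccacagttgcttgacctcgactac
PRX2: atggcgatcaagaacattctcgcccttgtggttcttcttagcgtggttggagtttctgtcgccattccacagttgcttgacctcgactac

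PRXCA and PRXCB (AT3G49120), the pair best known for the oxidative burst and for elongation of root cells, differ far more. Their coding sequences of 1065 and 1062 bases were 90.4% identical over the alignment, with 102 differences, a longest identical run of 111 bases and only 6.53% and 6.72% of 50-base windows of their transcripts shared. Most 50-base windows of both genes are therefore distinct. PRXCA had 1 to 4 counts in each library, and PRXCB gave 238, 596 and 552 CPM in the mock libraries, 517, 754 and 318 CPM after 1 day and 549, 512 and 231 CPM after 7 days. A 90-base stretch with 18 differences shows how far the pair has diverged (TAIR10.1, both on the + strand, PRXCA at chr3:18200785-18200874, coding bases 73 to 162, and PRXCB at chr3:18207888-18207977, coding bases 70 to 159; capitals mark differing bases):
PRXCA: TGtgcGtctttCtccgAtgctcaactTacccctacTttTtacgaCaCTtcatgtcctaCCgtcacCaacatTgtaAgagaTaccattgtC
PRXCB: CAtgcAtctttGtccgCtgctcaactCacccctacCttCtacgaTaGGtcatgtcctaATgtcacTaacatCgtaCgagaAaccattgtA

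Among the 58 members, 11 have a family gene with at least 90% coding identity, of which 8 passed the filter. The median identity to the closest family gene was 70.35%, and 43 of the 51 tested members share no 50-base window with another family gene. The 8 tested members that do share windows have at most 9.31% of them in common. Exons of 8 members overlap a gene on the opposite strand in RefSeq (AT1G30870, AT4G08780, AT4G33420, AT5G14130, AT5G40150, PER64, AT5G51890 and RHS19), and reads in those overlaps are uncertain because the strand setting of the count is not given.

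Some of the peroxidase genes lie next to each other, on the same or on opposite strands, and such neighbours often differed widely in level. RefSeq places 20 of the 58 members next to another member, in 11 adjacent pairs, and the other 38 apart from any member. AT5G64100, AT5G64110 and PRX71 follow each other on chromosome 5, at 573 ± 95, 8.94 ± 3.99 and 967 ± 305 CPM per kb, so the middle gene was 64.1-fold below one side and 108-fold below the other. RCI3, next to the unresolved PRX2, stood at 221 ± 26.3 CPM per kb. AT4G37520 (259 ± 29.5) was 5.25-fold above AT4G37530 (49.3 ± 3.66), with 92.4% coding identity, and Prx37 (48 ± 9.96) was 6.98-fold above AT4G08780 (6.87 ± 2.26), with 93.8%. AT2G38380 and AT2G38390, 90.6% identical, were the closest in level of the 9 adjacent pairs for which a ratio was taken, 1.5-fold apart.

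**Figure D3:**
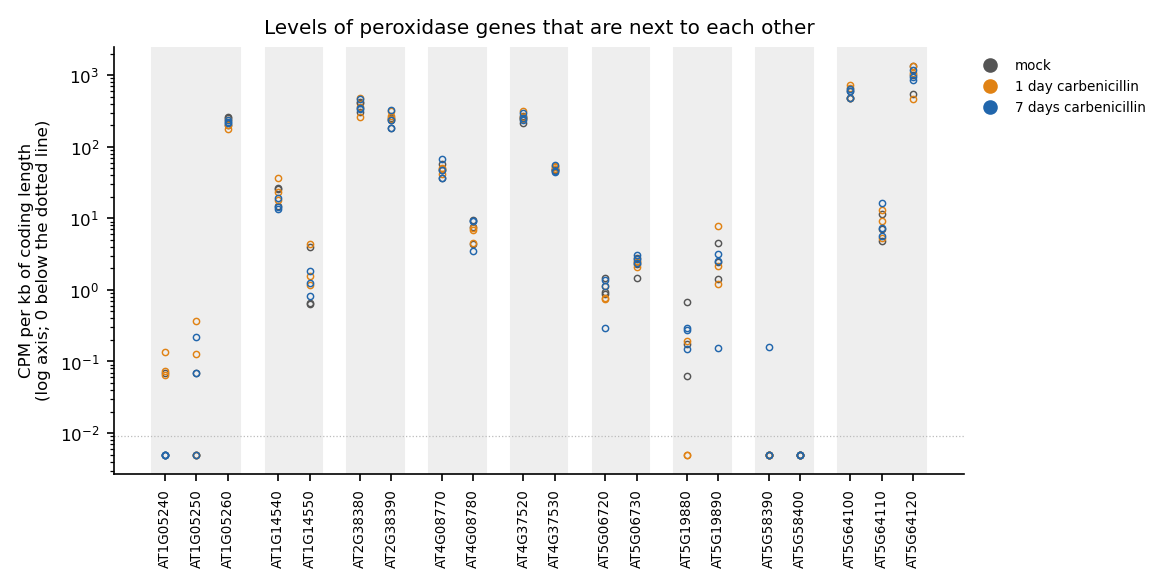
Levels (CPM per kb of coding length, log y axis; 0 below the dotted line) of the 20 members that are adjacent to another member, 1 circle per library, coloured by group, with grey bands joining adjacent genes. Within the band of AT5G64100, AT5G64110 and PRX71 the middle gene has a mean of 8.94 CPM per kb, beside 573 and 967 for its neighbours.

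Members that act in the Casparian strip were at moderate to high levels in every library. RCI3 (AT1G05260), PER64, PRX72, AT1G44970 and AT4G11290 are known to act together in lignifying the strip, and RCI3 is also cold-inducible. RCI3 gave 256, 199 and 244 CPM in the mock libraries, 198, 229 and 171 CPM after 1 day and 212, 216 and 228 CPM after 7 days. PRX72 stood at 197, 171 and 227 CPM in mock roots, 179, 203 and 187 CPM at 1 day and 175, 182 and 158 CPM at 7 days. PER64 stood at 124, 113 and 147 CPM in mock roots, 135, 132 and 140.5 CPM at 1 day and 124, 117 and 100.1 CPM at 7 days. For PER64, all 3 libraries at 7 days lay below all 3 at 1 day, while for RCI3 and PRX72 the groups overlapped. AT4G11290 gave 127, 81.5 and 104 CPM in the mock libraries, 89.9, 90.9 and 89.4 CPM after 1 day and 107, 89.8 and 106 CPM after 7 days. AT1G44970 stood at 37.8, 26.7 and 39.2 CPM in mock roots, 31.9, 38.7 and 40.9 CPM at 1 day and 32.4, 29.5 and 31.3 CPM at 7 days. Both overlapped between all groups.

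Vascular lignin peroxidases ranged from 96.3 CPM per kb for AT4G33420 to 0.540 for PRX52. AT4G33420 gave 92.5, 158 and 101 CPM in the mock libraries, 85.6, 106 and 101 CPM after 1 day and 86.7, 153 and 86.5 CPM after 7 days. AT5G51890 stood at 84.8, 101 and 74 CPM in mock roots, 64.5, 84.1 and 86 CPM at 1 day and 52.2, 96.5 and 68 CPM at 7 days. Both are linked to lignin of water-conducting vessels, and both had high and low libraries within a group. PRX25 (AT2G41480), which takes part in stem lignification, and AT2G22420, linked to lignified tissue formation, were at lower levels. PRX25 gave 28.4, 15.6 and 22.1 CPM in the mock libraries, 14.6, 18.7 and 13.8 CPM after 1 day and 20.5, 14.6 and 17.2 CPM after 7 days. AT2G22420 stood at 9.63, 14.6 and 11.4 CPM in mock roots, 13.8, 11.7 and 12.7 CPM at 1 day and 13.9, 14.6 and 11.2 CPM at 7 days. PRX52 gave 0.35, 0.314 and 0.74 CPM in the mock libraries, 0.0716, 0.756 and 0.131 CPM after 1 day and 0.287, 0.738 and 1.35 CPM after 7 days. PRX52, which has a role in lignin of interfascicular fibres of the stem, was at or below 1.35 CPM in each library.

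Root hair peroxidases include RHS18 (AT5G22410) and RHS19 (AT5G67400), named as root-hair-specific genes, AT5G39580 and AT5G64100, both linked to root hair growth in the cold. AT5G64100 gave 484, 484 and 599 CPM in the mock libraries, 647, 726 and 472 CPM after 1 day and 604, 476 and 646 CPM after 7 days. RHS19 stood at 57.6, 104 and 104 CPM in mock roots, 105, 111 and 76.8 CPM at 1 day and 102, 88.8 and 45.7 CPM at 7 days. RHS18 stood at 31.2, 48 and 57.9 CPM in mock roots, 50.7, 57.8 and 39.3 CPM at 1 day and 45.6, 40.9 and 33.1 CPM at 7 days. The lowest value in each group was in the shallow library for RHS18 and RHS19. AT5G39580 gave 7.01, 9.74 and 10.7 CPM in the mock libraries, 10.2, 13.7 and 19.6 CPM after 1 day and 9.4, 9.32 and 9.89 CPM after 7 days. AT5G39580 was highest in 1 day replicate 3, and its 7 day libraries all lay below its 1 day libraries.

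Elicitor-responsive members were low, apart from PRXCB. PER4 gave 14, 24.9 and 24.6 CPM in the mock libraries, 22.2, 17.1 and 34.2 CPM after 1 day and 18.2, 13.8 and 12.9 CPM after 7 days. AT1G14550 stood at 3.85, 0.628 and 0.606 CPM in mock roots, 1.5, 1.13 and 4.18 CPM at 1 day and 1.79, 0.805 and 1.2 CPM at 7 days. Both were highest in 1 day replicate 3, and AT1G14550 had its next highest value in mock replicate 1, another shallow library.

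Among members linked to the wall and to growth, PRX71 (AT5G64120), which limits cell expansion and responds to wall damage, and AT5G17820, a target of UPB1, were abundant. PRX71 gave 533, 991 and 1304 CPM in the mock libraries, 1059, 1304 and 464 CPM after 1 day and 1148, 849 and 936 CPM after 7 days. AT5G17820 stood at 389, 419.5 and 459.8 CPM in mock roots, 404, 469 and 386 CPM at 1 day and 436, 395 and 340.4 CPM at 7 days. PRX71 was low in mock replicate 1 and in 1 day replicate 3 but not in 7 days replicate 3. Prx37 gave 49, 37.8 and 59.2 CPM in the mock libraries, 52, 51.3 and 43.7 CPM after 1 day and 70.5, 48.4 and 37.5 CPM after 7 days. PA2 (AT5G06720) stood at 0.876, 0.943 and 1.48 CPM in mock roots, 1.15, 0.756 and 0.783 CPM at 1 day and 1.36, 1.14 and 0.3 CPM at 7 days. Prx37 causes dwarf growth when overexpressed, and PA2 responds to wounding; their groups overlapped.

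No peroxidase passed the threshold after 1 day on carbenicillin. Against mock, 0 of 51 members had an adjusted p under 0.05 (edgeR quasi-likelihood test, Benjamini-Hochberg over 19580 genes), where 0.158% of all genes did, and the lowest adjusted p was 0.517. At an unadjusted p under 0.05 the count was 1 of 51 (1.96%) against 7.45% of all genes, and DESeq2 called 0. The groups did not overlap for 1 member against 12.3% of all genes. The median log2 fold change over the 51 was 0.01, beside 0.00 over all genes, with 28 higher and 23 lower. It was -0.08 without mock replicate 1, -0.09 without 1 day replicate 2 and 0.14 without mock replicate 3.

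Among the members of lowest p at 1 day, AT5G39580 differed by 0.61 on the log2 scale (SE 0.22; adjusted p = 0.517 in edgeR), and AT2G38390 (0.31), AT5G64100 (0.24) and AT4G30170 (0.14) had smaller positive values. On the negative side were PRX25 (-0.45, SE 0.22), RCI3 (-0.22), AT3G01190 (-0.19) and AT2G39040 (-0.18), none past the threshold, with adjusted p from 0.694 to 0.803 in edgeR. AT3G01190 was the 1 member whose groups did not overlap, at 348, 336 and 349.9 CPM in mock and 316, 286 and 301 CPM at 1 day. By role, 4 of 4 tested root hair peroxidases and 3 of 3 tested burst and elicitor members had positive values. So did 2 of 5 Casparian strip, 1 of 5 vascular lignin and 1 of 4 wall and growth members, with 0 called in any list. Of all genes, 49.7% had positive values.

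After 7 days the family again had 0 of 51 members past the threshold against mock, where 0% of all genes passed (edgeR, adjusted p under 0.05). Unadjusted, 1 of 51 (1.96%) had p under 0.05 against 4.44% of all genes, and DESeq2 called 0 members. The groups did not overlap for 1 member, AT2G18980, against 9.15% of all genes; it stood at 189, 186 and 195 CPM in mock and 175, 162 and 155 CPM at 7 days. The median log2 fold change was -0.10, with 20 higher and 31 lower, beside 0.00 over all genes. It was 0.02 without 7 days replicate 3, and -0.15 to 0.02 with each library left out in turn.

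AT1G68850 (-0.45, SE 0.19), PER4 (-0.52, SE 0.27), AT5G15180 (-0.28) and PRX72 (-0.21) had the lowest p on the negative side at 7 days, and AT5G06730 (0.26), AT3G21770 (0.15), AT2G38390 (0.17) and AT2G22420 (0.14) on the positive side, with adjusted p of 0.9998 by edgeR for each. AT1G68850 gave 37.7, 50.3 and 55.1 CPM in the mock libraries, 37.1, 51.1 and 61 CPM after 1 day and 33.4, 40.5 and 31 CPM after 7 days. Its 7 day values were at the low end of a range that the mock libraries overlap. By role, 5 of 5 Casparian strip and 3 of 3 tested burst and elicitor members had negative values. So did 3 of 5 vascular lignin, 2 of 4 tested root hair and 2 of 4 wall and growth members, with 0 called in any list. Of all genes, 49.7% had negative values. Among cell type markers, negative values were held by 6 of 6 xylem, 6 of 6 root hair cell, 3 of 3 root cap and 3 of 4 endodermis genes. The 4 genes of a general root list (SHR, PIN2, CO2 and WOX5) all had positive values. None of these lists had a gene called.

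The comparison of 7 days with 1 day likewise gave 0 of 51 members, with 0% of all genes past the threshold. A total of 3 of 51 (5.88%) had an unadjusted p under 0.05 against 2.03% of all genes; all 3 were lower at 7 days, against 1.01% of all genes, namely AT5G39580 (-0.58, SE 0.22), AT1G68850 (-0.50, SE 0.19) and PER4 (-0.68, SE 0.27), each with an adjusted p of 0.9997 in edgeR, and DESeq2 called 0 members. PER64 (-0.25, SE 0.12) and AT5G39580 were the 2 members whose groups did not overlap (3.92%, against 6.37% of all genes). On the positive side stood PRX52 (0.94, SE 0.77), AT2G34060 (0.34), AT5G06730 (0.24) and AT4G11290 (0.16). The median over the 51 members was -0.09, but 0.02 without 1 day replicate 2 and 0.0019 without 7 days replicate 3. The comparisons of 7 days share libraries with those of 1 day, so the 3 sets of values are not independent.

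Most of these fold changes shifted in ratio when a library was left out. Of the 24 named in the 3 comparisons, 20 moved by over 1.5 times when 1 library was left out, and 1 changed sign. Small values pass such a ratio easily. AT4G11290 at 7 days against 1 day counted as moved by going from 0.16 (SE 0.15) to 0.25 without 7 days replicate 2. Without 1 day replicate 3, AT5G39580 stood at 0.35 for 1 day against mock and -0.33 for 7 days against 1 day, PER4 at -0.38 and AT1G68850 at -0.33 for 7 days against 1 day. PRX25 at 1 day was -0.25 without mock replicate 1. AT3G21770 at 7 days against mock was 0.013 without mock replicate 2. PRX52, which rests on few counts, ranged from 0.44 to 2.79 for 7 days against 1 day.

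**Figure D4:**
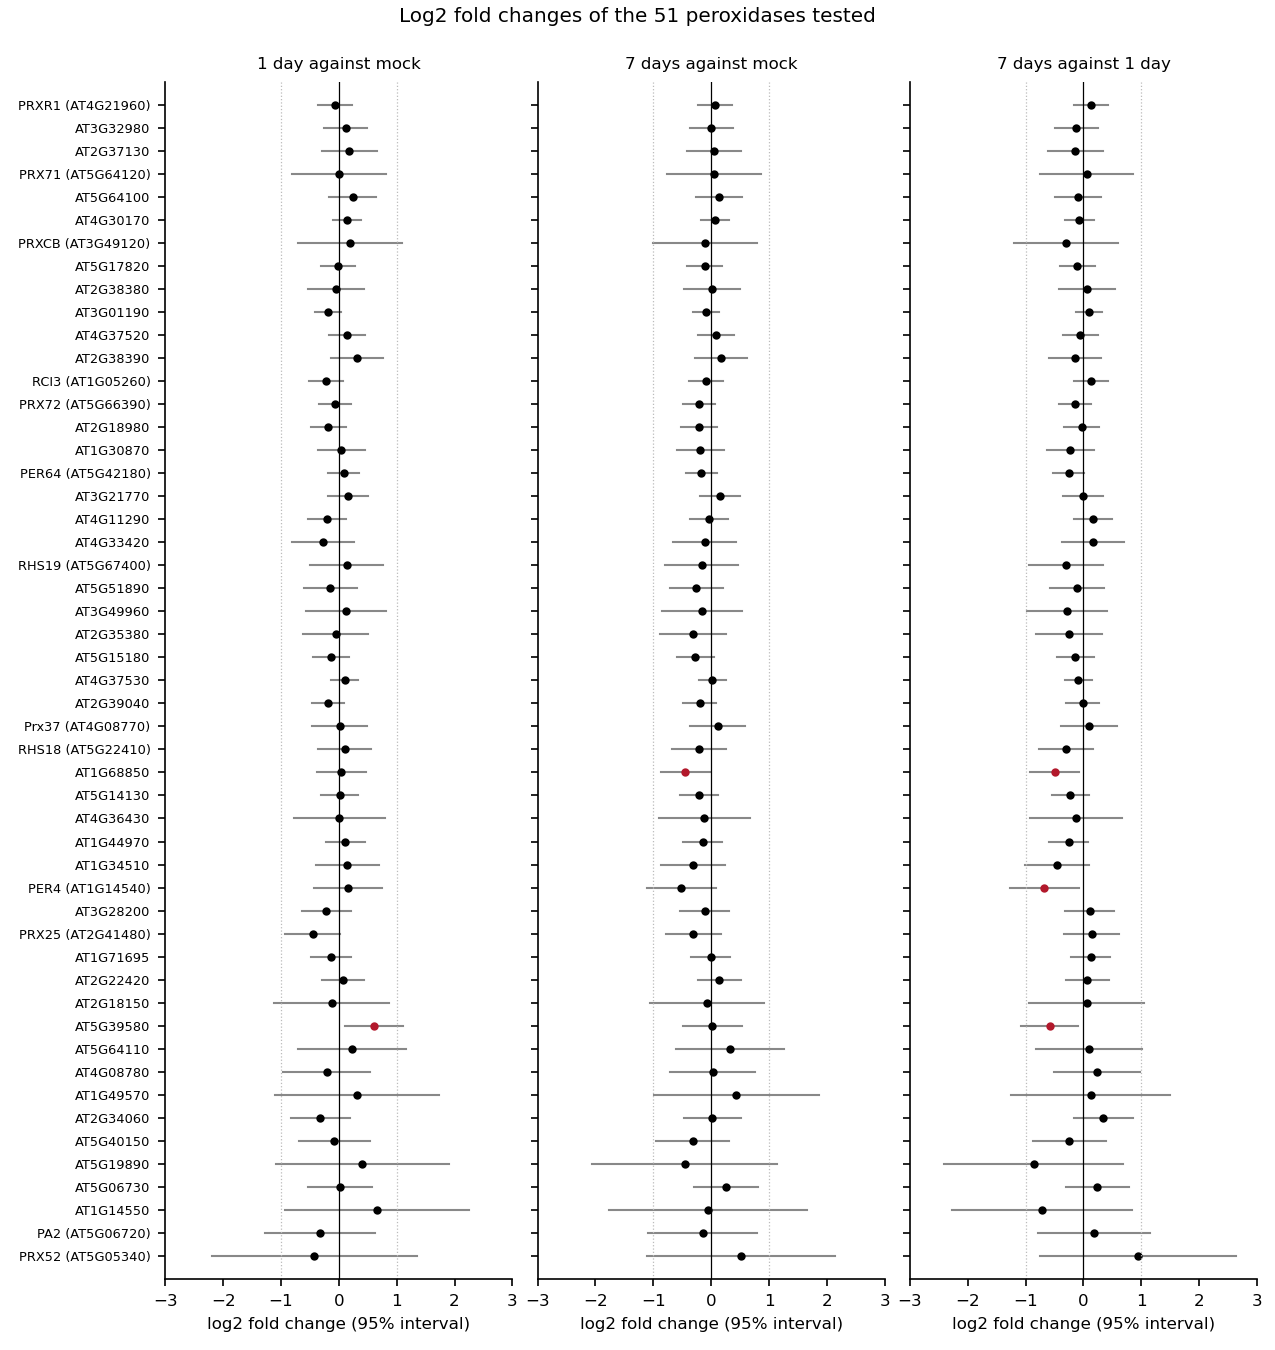
Log2 fold changes of the 51 tested peroxidases with 95% intervals (x axis) in the 3 comparisons, ordered by mean level; red marks an unadjusted p under 0.05 and dotted lines mark 2-fold. No member passed the adjusted threshold in any of the 3 comparisons.

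The size of change that the data allow differs between members. The 95% interval of the log2 fold change lay within 2-fold for 42, 43 and 40 of the 51 members in the comparisons of 1 day with mock, 7 days with mock and 7 days with 1 day, and within 1.5-fold for 25, 24 and 23. PRXR1, AT4G30170 and AT3G01190 had among the narrowest intervals, and PRX52, AT5G19890 and AT1G14550 were among the widest. Within-group SD of log2 CPM had a median of 0.30 over the members and 0.20 over all tested genes. A missed threshold thus does not show that the low members did not change.

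Among genes that supply or control the peroxidases, none was called by edgeR. Of the NADPH oxidases and UPB1, 0 of 9 tested genes passed in each comparison, with 1, 1 and 0 at an unadjusted p under 0.05. RHD2 (RBOHC), the root hair NADPH oxidase, gave 120.2, 124 and 121 CPM in the mock libraries, 95.8, 97.9 and 101 CPM after 1 day and 105, 105 and 95.8 CPM after 7 days, so that all mock libraries lay above the rest, at log2 fold changes of -0.31 (SE 0.09, adjusted p = 0.329) and -0.25 (SE 0.09, adjusted p = 0.921) in edgeR. Against mock, the groups did not overlap for 12.3% of all genes at 1 day and 9.15% at 7 days, and RHD2 had the lowest p of its list in both. Laccases (11 tested), which polymerize lignin without peroxide, Casparian strip scaffold genes (9) and extensins (12) also had 0 called in the 3 comparisons by edgeR and by DESeq2. Their genes with an unadjusted p under 0.05 numbered 1, 1 and 1 for the laccases, 1, 0 and 1 for the scaffold genes and 0, 0 and 0 for the extensins. Of the 12 monolignol synthesis genes, 10 at 1 day and 12 at 7 days had negative values, with 0 called by edgeR and 3 (25%) and 1 (8.33%) at an unadjusted p under 0.05, beside 7.45% and 4.44% of all genes. Of all genes, 50.3% and 49.7% had negative values in these comparisons. Negative values were held by 5 and 8 of the 11 laccases, 3 and 7 of the 9 scaffold genes and 4 and 1 of the 12 extensins. Between 7 days and 1 day the monolignol list had 6 higher and 6 lower, with 0 at an unadjusted p under 0.05. In the 3 shallow libraries against the rest, 10 of its 12 genes were lower, beside 50.5% of all genes. Of these, 3 had an unadjusted p under 0.05 in edgeR. ATCAD4, a cinnamyl alcohol dehydrogenase, had the lowest adjusted p of these lists in edgeR, 0.169 at 1 day (log2 fold change -0.55, SE 0.13), and was the 1 gene of these lists that DESeq2 called (adjusted p = 0.00814).

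Some peroxidases differed between the 3 shallow libraries and the other 6. With the depth class as a term beside the groups, a comparison chosen with these data in view, 6 of 51 members were lower in the shallow libraries (11.8%, against 0.603% of all genes) at an adjusted p under 0.05 by edgeR. In the other direction 0 members passed (0.792% of all genes did), with 1 at an unadjusted p under 0.05 (7.61% of all genes) and 1 by DESeq2, AT1G14550 in both cases. The 6 lower members were PRXCB (log2 fold change -1.15, SE 0.14, adjusted p = 0.00287), RHS19 (-0.79, 0.00844), AT1G34510 (-0.68, 0.0138), AT4G08780 (-0.99, 0.0245), AT3G49960 (-0.82, 0.0258) and RHS18 (-0.53, 0.0421). AT3G49960 is annotated in RefSeq as enriched in root hair cells, and AT4G08780 and RHS19 each overlap a gene on the opposite strand. Each of the 6 was lower in the shallow library of its group than in the other 2 libraries of that group.

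PRXCB gave 231 to 318 CPM in the shallow libraries and 512 to 754 CPM in the other 6. RHS19 ranged over 45.7 to 76.8 against 88.8 to 111 CPM. Values of shallow and other libraries did not overlap for 11 of the 51 members, all lower, these 6 included (21.6%, against 4.47% of all genes lower). The count depended on single libraries. Without mock replicate 1 it was 1 of 51 (PRXCB), without mock replicate 3, 1 day replicate 2 or 7 days replicate 3 it was 3, and without 7 days replicate 2 it was 4. PRXCB was the 1 member called with each library left out in turn.

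**Figure D5:**
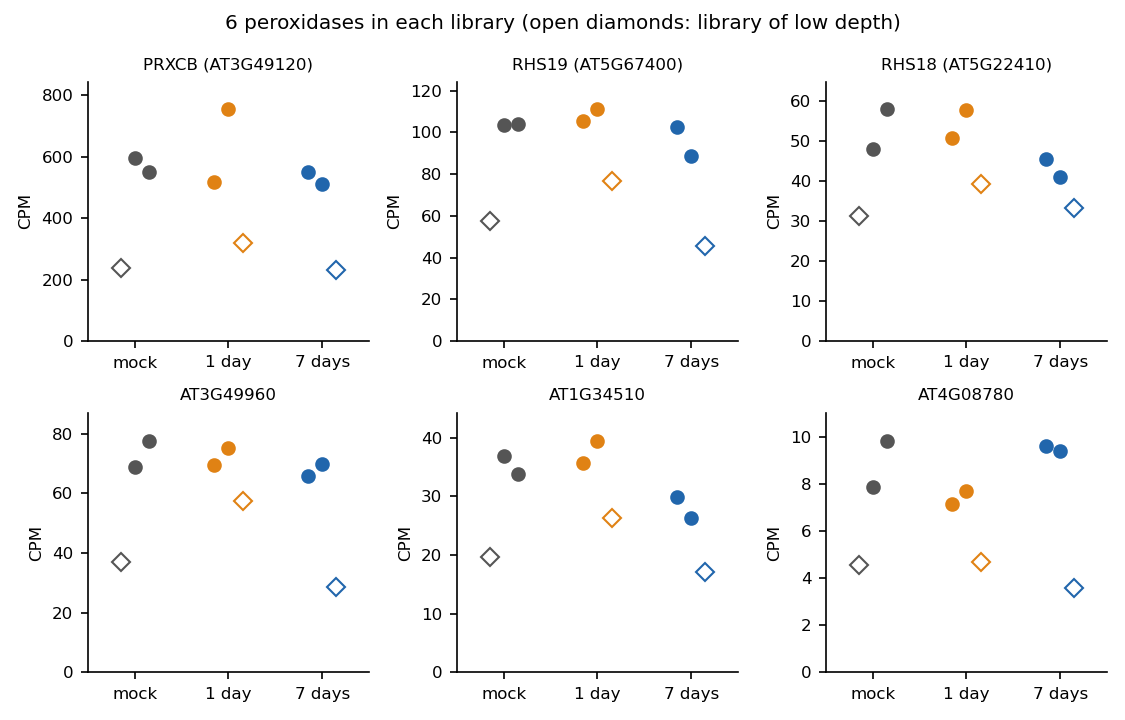
CPM (y axis, from 0) of the 6 peroxidases lower in the shallow libraries, in each library of the 3 groups, filled circles for the 6 deeper libraries and open diamonds for the 3 shallow ones. In every panel the diamond is the lowest point of its group.

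Other genes moved with the same 3 libraries. The summed level of 6 root hair markers was 142 to 176 CPM in the shallow libraries and 191 to 218 in the other 6, without overlap. Of the 6, 5 were lower and 2 were called lower (EXPA18, EXPA7). RHD6 overlapped, at 12.6 to 14 CPM against 11.2 to 16, as did the root hair peroxidase AT5G64100, at 472 to 646 against 476 to 726. Of the 12 extensins, 8 were higher in the shallow libraries, 3 of the 12 at an unadjusted p under 0.05 in edgeR, all higher, and 0 were called. Touch and wound genes summed to 133 to 170 CPM against 63.1 to 97.5, with 4 of 8 called higher, and shoot genes to 33.1 to 93.1 CPM against 0.604 to 38.3, with 1 of 8 called higher. The shoot sum did not follow depth in the mock group, at 38.3 CPM in mock replicate 3, a deeper library, and 33.1 in the shallow mock replicate 1. The part of the root hair, touch and shoot genes in the peroxidase difference was not tested. In bulk roots, fewer cells of a type and less RNA per cell cannot be told apart.

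The promoters of RHS18 and RHS19 are shown because both were lower in the shallow libraries and match a simplified pattern of the root hair element. That element is a motif bound by basic helix-loop-helix factors of root hair growth. The pattern is looser than the full element, so a match need not be such an element. The simplified form searched (TGNNNNCACG or TGNNNNNCACG, on either strand; the 2 forms may overlap) occurs in the 250 bases before the start of 9 of the 58 members (15.5%), beside 9.01% of 27561 protein-coding genes and 9.36% of the 19054 that were tested. RHS18 has 2 matches and RHS19 has 1, shown in capitals (TAIR10.1, + strand, RHS18 at chr5:7426060-7426309, RHS19 at chr5:26894528-26894777; the last base precedes the gene's start). No match was found in the same window of AT1G34510, AT3G49960, PRXCB or AT4G08780; a match is a description of the letters only.
RHS18: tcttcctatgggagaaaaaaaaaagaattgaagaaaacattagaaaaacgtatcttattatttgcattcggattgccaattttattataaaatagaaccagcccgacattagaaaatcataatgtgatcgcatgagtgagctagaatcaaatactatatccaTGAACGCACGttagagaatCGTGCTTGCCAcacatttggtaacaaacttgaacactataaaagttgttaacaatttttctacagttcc
RHS19: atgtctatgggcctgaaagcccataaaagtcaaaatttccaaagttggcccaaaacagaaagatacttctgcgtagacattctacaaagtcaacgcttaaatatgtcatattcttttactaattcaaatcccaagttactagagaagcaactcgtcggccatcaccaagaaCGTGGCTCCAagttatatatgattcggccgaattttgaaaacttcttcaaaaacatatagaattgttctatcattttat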

How the data were processed

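Gene counts from roots were analysed in 9 libraries of 3 groups, mock, 1 day and 7 days of carbenicillin, grouped by the sample titles. RNA was extracted with RNeasy Plant Mini and libraries were made with a TruSeq stranded total RNA kit, per the labels' protocols. Per the submitters' processing notes, the tools included FastQC, cutadapt and edgeR, of unnamed version. Not given in the sources used here: aligner, counter, strand setting and genome build. Raw counts of 28775 genes were deposited by the authors as whole numbers, and 2 blank lines were left out.

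Counts were tested with edgeR 4.0.16 (R 4.3.3, limma 3.58.1) after filterByExpr, which left 19580 genes, and TMM scaling, in 1 quasi-likelihood fit of all 9 libraries with group as the factor. A gene was called at an adjusted p under 0.05 (Benjamini-Hochberg over all tested genes). Standard errors are the absolute log2 fold change divided by the square root of F. Shares of counts were compared by exact permutation. DESeq2 1.42.0, other scalings and filters, a replicate block, a depth term and left-out libraries were alternatives. The fit was tested on simulated data. With totals of 5820675 to 16088265 counts, a count of 0 allows up to 0.186 to 0.515 CPM. None of the 36 pairs of libraries agreed within sampling noise (chi-square per degree of freedom from 9.72 to 30.8 in the 9 pairs within groups and 7.27 to 40.6 in the 27 across groups). Same-numbered libraries at 7 days and 1 day deviated together (correlations of 0.188, 0.268 and 0.193). Replicate 3 is the shallow library in both of these groups, so for this number pairing cannot be told apart from depth. Replicates 1 and 2 are deeper libraries in both groups. Across numbers they correlated at -0.00415 (7 days replicate 1 with 1 day replicate 2) and -0.187 (7 days replicate 2 with 1 day replicate 1). The mock numbers did not deviate together throughout (0.0530, 0.383 and -0.173 against 1 day, -0.0746, 0.441 and -0.251 against 7 days). Mock replicate 1, the shallow mock library, correlated with replicate 3 at 1 day (0.409) and at 7 days (0.338).

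Names, coding sequences, neighbours and promoters came from RefSeq (TAIR10.1), read and aligned with Python 3.11.15 and Biopython 1.88; 28009 of the 28775 genes had an entry. The rule for named genes gave library values for the role lists and the 5 members of highest level, and fold changes for members called or among the 4 of lowest p in each direction; the 6 members of the depth comparison, AT2G18980 and AT4G08780 were named after their values were seen. Members, lists and the depth split were chosen with earlier results of these data known.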

Additional observations from a re-analysis of the deposited data

How the results depend on the processing

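The count of 0 peroxidases called held in the 3 comparisons under all 20 alternatives run (RLE and upper quartile scaling, 2 filters, DESeq2, the replicate block, the depth term, organelle genes left out and libraries left out). Of the 24 log2 fold changes of peroxidases named in these comparisons, 20 moved by over 1.5 times with 1 library left out, and 1 changed sign under any alternative, AT2G38390 at 7 days against mock, -0.069 without 7 days replicate 1 (0.17 with it, and -0.069 to 0.35 over the left-out libraries); the cause was not tested. AT4G26010, not on the list, was -0.069 at 1 day without mock replicate 1 (0.15 with it; -0.069 to 0.31 over the left-out libraries); its cause was not tested either. With a library left out, the median over the peroxidases ran from -0.087 to 0.14 at 1 day, -0.15 to 0.024 at 7 days and -0.13 to 0.019 for 7 days against 1 day, and the difference in share from -0.0297 to 0.110, -0.0748 to 0.0391 and -0.121 to 0.0192 percentage points. RHD2 and ATCAD4 kept their sign in each alternative run, and ATCAD4 passed the threshold with DESeq2 alone. The alternatives for these 3 genes were added after seeing the data. The replicate block called 0 peroxidases in each comparison, as did the fit without it, and so changed no call of a peroxidase. Counts over all genes at 1 day moved from 2 higher and 29 lower to 59 and 138 with DESeq2, 25 and 69 without the 3 shallow libraries, 21 and 53 with the replicate block on the 2 groups alone, 12 and 49 without a filter and 8 and 50 with the depth term. They were 0 and 0 without mock replicate 3, 1 day replicate 1 or 1 day replicate 2, and 8, 15 and 11 were lower without mock replicate 2, 1 day replicate 3 and 7 days replicate 1. At 7 days they moved from 0 and 0 to 19 and 28 with DESeq2, 0 and 13 without the shallow libraries and 0 and 2 with the depth term. For shallow libraries against the rest, a comparison and alternatives chosen after seeing the data, 6 peroxidases were lower and 0 higher; without a filter these were 11 and 1, with DESeq2 12 and 1, and with a library left out 1 to 8 lower and 0 to 1 higher. Depth limits the members under about 1 CPM, whose values rest on a few counts per library.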

Other observations

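Of the 16 family genes that were not on the list, 7 passed the filter for low counts. AT4G26010 was the most abundant of them, with a mean of 148 CPM over the 9 libraries, and is the closest family gene of AT1G34510, at 70.0% coding identity. Its log2 fold changes were 0.15 for 1 day against mock, -0.20 for 7 days against mock and -0.35 for 7 days against 1 day, with adjusted p of 0.901, 0.9998 and 0.9997 by edgeR. The first was -0.07 without mock replicate 1, the second -0.02 and the third -0.17 without 7 days replicate 3. Mock replicate 1 and 7 days replicate 3 are both shallow libraries. PER36 and AT3G42570 had 0 counts in all 9 libraries.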
